A study of Arabidopsis thaliana with 17 samples.

Results

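The comparison of stn7-1 with Col-0 asks what happens to leaf transcripts when the thylakoid kinase STN7 is lost from plants whose photosystems are otherwise intact. It compares 6 of the 17 arrays of the study, which profiles transcripts in mutants of the long-term response of photosynthesis to light. The stn7-1 arrays A, B and C come from rosette leaves of 4-week-old plants of that mutant, and the Col-0 arrays A, B and C come from leaves of the same age of the wild-type accession. Each array holds the labelled RNA of 1 pool of 10 plants, and the pools are described as biological replicates. The other arrays used below are 3 of the double mutant psad1-1 stn7-1, 2 of psad1-1, 2 of psae1-3 stn7-1 and 2 of psae1-3, all from 4-week-old rosettes; psad1-1 and psae1-3 are mutants of genes for the D and E subunits of photosystem I, and the first pair of genotypes lies on the same set of 11 arrays as stn7-1 and Col-0, whereas the second pair lies on a set of 6 arrays that the authors scaled separately. The 2 arrays left, of the wild-type accession Wassilewskija, enter no tested comparison but take part in the shared estimate of spread, which was fitted over all 17 arrays. All genotypes with STN7 removed carry the single allele stn7-1, so loss of the kinase and anything else carried by that line cannot be told apart. The ATH1 array measures 22810 probe sets. After the dimmest were dropped, 13648 were tested, and the 7354 of them that are listed with exactly 1 named gene, covering 7286 genes, are described here.

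STN7 phosphorylates light-harvesting antenna proteins of photosystem II when the plastoquinone pool is reduced, which lets antenna move between the photosystems (state transitions). The same kinase is needed for the slower adjustment of photosystem amounts to light quality, the long-term response. Signals from the plastoquinone pool and from the stroma reach both the plastid genes and the nuclear genes for plastid proteins, so leaf transcripts are a usual readout of such mutants. No probe set listed with a name belongs to STN7 itself, so its transcript was not examined here. The 40 tested named probe sets nearest to the STN7 locus, 20 on each side, held 0 that were higher and 8 that were lower in stn7-1, with a median log2 change of -0.14, where 8.54% of all named probe sets were higher and 9.34% lower.

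Leaf identity and array quality were examined first. The measured genes for antenna proteins, nuclear photosystem subunits, the Calvin cycle and ATP synthase lay at percentile 97.4 of signal or higher in each of the 6 arrays. Of the wild-type arrays, Col-0 B correlated least with each stn7-1 array, at 0.954 to 0.962, against 0.966 to 0.971 for Col-0 A and 0.962 to 0.963 for Col-0 C. Within the wild type it stood less apart. It correlated at 0.966 with Col-0 A and 0.971 with Col-0 C, against 0.972 between Col-0 A and Col-0 C. The signal of the 25S ribosomal RNA control was 1568, 1651 and 1376 in stn7-1 A, B and C and 1198, 522 and 1077 in Col-0 A, B and C. Col-0 B therefore had the lowest value of the 6, and its part in the results was not tested beyond leaving it out. All stn7-1 arrays lay above all Col-0 arrays in the 25S control. So did the hybridization spikes, at 254 to 293 in stn7-1 and 222 to 252 in Col-0, whereas the 5S control overlapped. The 3' to 5' signal ratio of actin was 11.2 in stn7-1 C and 7.86 in Col-0 A, against 3.44 to 4.45 in the others. The ubiquitin ratio was highest in stn7-1 C (2.83) and the GAPDH ratio in Col-0 C. The part of RNA quality or of a technical offset between genotypes was not tested. Leaf RNA is a mixture of cell types, and fewer cells of a type and less RNA per cell cannot be told apart here.

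Loss of STN7 was accompanied by changes of modest size in many genes. Of the 7354 named probe sets, 1315 (17.9%) passed an adjusted p of 0.05 in a limma fit over all arrays, 628 higher in stn7-1 (8.54%) and 687 lower (9.34%). Over all 13648 tested probe sets the shares were 18.9% in either direction, 9.74% higher and 9.17% lower. The median log2 change was 0.60 among those higher and -0.63 among those lower, against -0.04 over all 7354. Only 52 of those higher and 121 of those lower changed by a log2 of 1 or more, and 2 higher and 6 lower had a fitted change of 2 or more, the 2 higher ones resting on wild-type signals under the background. All 3 stn7-1 arrays lay above all 3 Col-0 arrays in 612 of the 628 higher probe sets, where 16.5% of all named probe sets did so, and below them in 647 of the 687 lower ones, where 20.2% did so. Genes higher in stn7-1 had a median mean signal of 230.0 in stn7-1 and 146 in Col-0, and genes lower had 93.8 in stn7-1 and 156 in Col-0, against 79.2 in stn7-1 and 83.1 in Col-0 over all named probe sets. In the wild type both groups were thus brighter than the median gene and close to each other. These are scaled signals, on a scale where each array has a trimmed mean of 100 and where signals under 8.15 are within the range of unspiked control probe sets.

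The number of calls rests strongly on 2 arrays, both lettered B. Without Col-0 B, 332 named probe sets were higher and 324 lower, and 634 of the 1315 calls (48.2%) were made again in the same direction. Without stn7-1 B, 723 were called in all and 702 of the 1315 (53.4%) were made again. Col-0 B was the lowest wild-type array in 463 of the 628 higher calls (73.7%, against 44.8% of all named probe sets) and the highest in 391 of the 687 lower calls (56.9%, against 26.6%). The split between directions also depends on the scaling: with each array scaled to its median, 895 named probe sets were higher and 400 lower.

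None of the measured genes for parts that STN7 acts beside in the thylakoid passed the test, but most of these genes were not covered. Those with a named probe set were 3 of 20 antenna genes on the list and 5 of 26 nuclear photosystem genes. They were also 3 of 17 Calvin cycle genes and 1 of 10 genes for electron carriers and ATP synthase. None of the 3 measured antenna genes, all encoding the minor antenna protein CP29, was called: LHCB4.1 had a signal of 4881, 5461 and 5071 in stn7-1, against 5303, 5225 and 4643 in Col-0, and its log2 change was 0.02 ± 0.10 (SE, adjusted p = 0.898). The ranges of the genotypes overlapped. LHCB4.2 changed by -0.08 and LHCB4.3 by 0.05 on the log2 scale. None of the 5 measured nuclear photosystem genes passed either, with PSB27, for a photosystem II assembly protein, at 0.26, the photosystem I subunit genes PSAN and PSAE-1 at -0.10 and -0.03, and PSBW and PSBY, for small photosystem II proteins, at -0.13 and -0.01. The ranges of PSB27 (above Col-0) and of LHCB4.2, PSAN and PSBW (below Col-0) did not overlap between genotypes, although none passed. The Calvin cycle genes SBPASE, PRK and RCA, for sedoheptulose bisphosphatase, phosphoribulokinase and Rubisco activase, had log2 changes of 0.23, 0.19 and -0.04, and ATPC1, for the gamma subunit of the plastid ATP synthase, 0.12. PRK also lay above Col-0 without overlap. Scaling to the median carried 2 of the 3 Calvin cycle genes past the threshold as higher.

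None of the 3 measured regulators of the thylakoid, of 11 on the list, was called in the fit of all arrays. PGRL1B, for a protein of cyclic electron flow around photosystem I, had a signal of 189.9, 141 and 216 in stn7-1 and 246, 271 and 201 in Col-0, with a log2 change of -0.40 ± 0.16 (SE, adjusted p = 0.0828). Only stn7-1 C lay inside the range of the wild type. Without that array the change was -0.54 and passed (adjusted p = 0.0353), and without stn7-1 B it was -0.23. CURT1A (AT4G01150), for a protein that curves the thylakoid membrane at grana margins, changed by -0.05, and AT3G47070, placed on the list of thylakoid regulators by its locus, by -0.11.

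Genes of tetrapyrrole synthesis, the pathway to heme and chlorophyll, were higher in stn7-1. Of the 26 on the list, 8 were measured. Among these 7 were called higher and 0 lower, with a median log2 change of 0.78, where 8.54% of all named probe sets were called higher. HEMB1, for the enzyme that condenses aminolevulinic acid to porphobilinogen, had a signal of 715, 779 and 763 in stn7-1, against 486, 396 and 458 in Col-0. It averaged 752 ± 33.4 in stn7-1 and 447 ± 46.1 in Col-0 (SD, n = 3 each), a log2 change of 0.76 ± 0.09 (SE) with a limma adjusted p of 0.000315. The lowest mutant array was well above the highest wild-type array.

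Steps before and after HEMB1 moved the same way. GSA1, for the aminotransferase that makes aminolevulinic acid, had 401, 466 and 424 in stn7-1, against 319, 214 and 284 in Col-0 (log2 change 0.68). HEME1, for a uroporphyrinogen decarboxylase, had 637, 676 and 461 in stn7-1, against 357, 292 and 307 in Col-0 (0.88), and its paralogue HEME2 had 911, 981 and 806 in stn7-1, against 613, 410.4 and 519 in Col-0 (0.82). In none of these 3 genes did the genotypes overlap, and Col-0 B was the lowest array in each. On the magnesium branch, CHLI2, for a subunit of the chelatase that commits the pathway to chlorophyll, had 251, 309 and 259.5 in stn7-1, against 177, 123 and 141 in Col-0 (0.91 ± 0.14 SE, adjusted p = 0.000879). CHLM, for the methyltransferase that follows, changed less, with 1868, 2001 and 1772 in stn7-1 and 1560.0, 1339 and 1415 in Col-0 (0.39). PORB, for a light-dependent protochlorophyllide reductase, had 1152, 1183 and 830.0 in stn7-1 and 697, 479.7 and 627 in Col-0 (0.81). The exception was AT1G74470, on the list by its locus, with 3175, 3448 and 3348 in stn7-1 and 3313, 2901 and 2712 in Col-0, where the arrays overlapped and the change was 0.16 (adjusted p = 0.177). Without Col-0 B, 6 of the 8 were called and the median was 0.66.

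**Figure D1:**
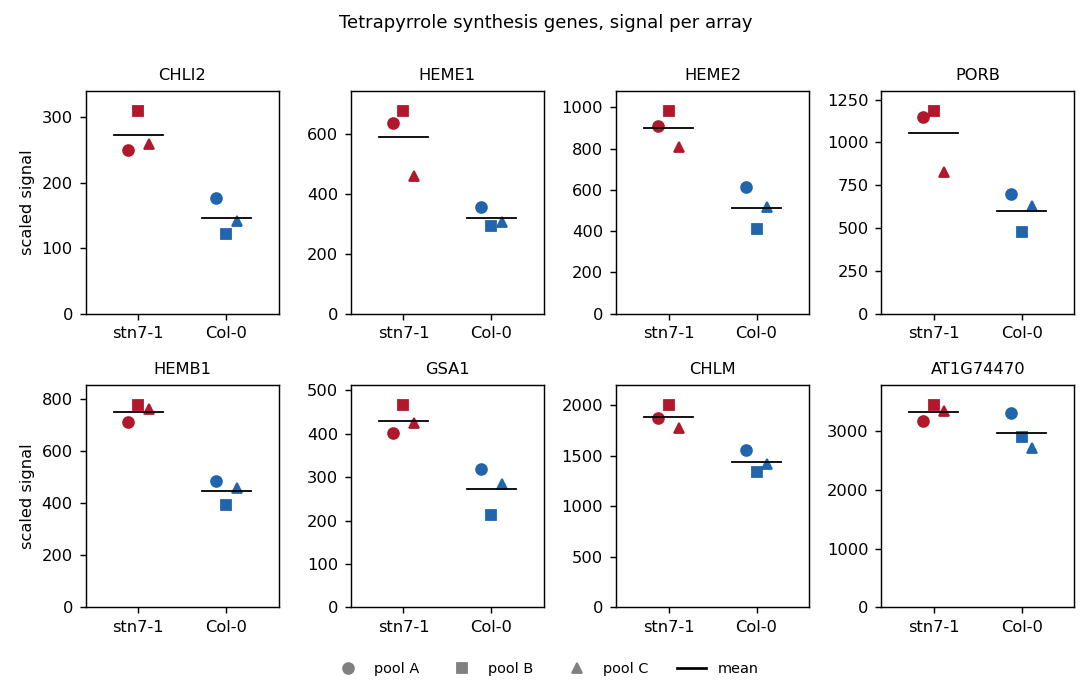
Scaled signal on each array for the 8 measured genes of tetrapyrrole synthesis, with stn7-1 at the left and Col-0 at the right of each panel, marker shapes for the pools A, B and C, and a line at the mean of each genotype. In 7 panels all stn7-1 points lie above all Col-0 points, and in the panel of AT1G74470 they overlap.

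Nuclear genes for the plastid's own expression machinery were also higher. All 7 measured genes for plastid ribosomal proteins, of 33 on the list, were called higher, where 8.54% of all named probe sets were. Their log2 changes were 0.43 to 0.81, with a median of 0.60. AT3G13120 had a signal of 1665, 2019 and 1688 in stn7-1 and 1098, 912 and 1049 in Col-0 (0.81 ± 0.10 SE, adjusted p = 0.000353). AT1G64510 had 1539.8, 1726 and 1564 in stn7-1 and 1025, 847 and 973 in Col-0 (0.77). In both, every mutant array lay well above every wild-type array. Without Col-0 B, 6 of the 7 were called, with a median of 0.51.

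Factors that act on plastid RNA showed some of the larger rises. Their list was added after values were seen, and 11 of its 44 genes were measured. Of 11 measured genes for plastid transcription and RNA factors, 8 were called higher and 0 lower, where 8.54% of all named probe sets were higher, and the median log2 change of the list was 1.11. RH39, for a plastid RNA helicase, had 97.8, 132 and 95.8 in stn7-1, against 52.8, 40.7 and 42.8 in Col-0 (1.25 ± 0.17 SE, adjusted p = 0.000391). AT5G46580 had 236, 315 and 229 in stn7-1 and 129, 97.9 and 97.5 in Col-0 (1.26), and AT4G26370 had 94, 139 and 91.5 in stn7-1 and 46.4, 29.4 and 36.3 in Col-0 (1.53); both are on the list by their locus. In all 3 genes the lowest mutant array lay above the highest wild-type array, and stn7-1 B was the highest of the 6. RAP, for a protein needed to process plastid ribosomal RNA, rose by 0.77, CAF1, for a group II intron splicing factor, by 0.67, and CRR21, for an RNA editing factor of the NDH complex, by 0.67. AT5G55580, which RefSeq lists as mTERF9, gave 35.3, 37.3 and 31.8 in stn7-1 and 22.4, 2.09 and 17.1 in Col-0. Col-0 B was under the background there, so its fitted change of 1.90 (adjusted p = 0.0293) depends on that array, and it was 0.83 without it. The call was lost without stn7-1 A, stn7-1 B or stn7-1 C. CRR22 and CRR28, for other editing factors, had log2 changes of 1.11 and 1.18 and did not pass, each with 1 wild-type array below background. Without Col-0 B the list had 5 calls and a median of 0.65.

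Genes for protein handling and pyrimidine synthesis followed in smaller numbers. The lists behind them were added after values were seen, and the first is not confined to the plastid. Of 6 measured genes for removal of the N-terminal formyl group and methionine, 4 were called higher, where 8.54% of all named probe sets were. MAP1C (AT1G13270), for a methionine aminopeptidase, had 172, 328 and 112 in stn7-1 and 65.4, 31.2 and 70.4 in Col-0, a change of 1.82 ± 0.32 (SE, adjusted p = 0.00172). stn7-1 B was the highest and Col-0 B the lowest of its 6 arrays, and without stn7-1 B the change was 1.41. Without Col-0 B 3 were called, MAP1A being lost (adjusted p = 0.0743). MAP1A was likewise lost, with 3 called, without Col-0 C, stn7-1 A, stn7-1 B or stn7-1 C. PDF1B, for a peptide deformylase, had 311, 343 and 320.5 in stn7-1 and 217, 185 and 205 in Col-0 (0.68). Cpn60beta2, for a plastid chaperonin subunit, rose by 0.70, a call lost without Col-0 B, and Cpn60beta4 by 0.65, whereas Cpn60beta3 had a change of -0.33 that did not pass. CLPP4, for a subunit of the plastid Clp protease, rose by 0.57. The pyrimidine genes PYRB, for aspartate transcarbamylase, and UPP, for a uracil phosphoribosyltransferase, rose by 0.62 and 0.78, and both were the measured members of that list.

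Among genes for antioxidants and redox proteins of the plastid, 5 of 6 measured, from a list of 21, were called higher. The median log2 change was 0.45, where 8.54% of all named probe sets were called higher. NTRC, for a reductase that carries electrons from NADPH to peroxiredoxin, had 721, 814 and 592 in stn7-1, against 388, 335 and 416 in Col-0 (0.90 ± 0.15 SE, adjusted p = 0.00102). TAPX and SAPX encode the ascorbate peroxidases of the thylakoid and the stroma. TAPX had 785, 788 and 800.2 in stn7-1 and 629.5, 559.7 and 571 in Col-0 (0.43), and SAPX had 325, 494 and 348 in stn7-1 and 277, 213 and 232 in Col-0 (0.68). The genotypes did not overlap in any of these, TAPX being the tightest within stn7-1. Without Col-0 B 3 of the 6 were called, and likewise 3 without stn7-1 B, with SAPX among those lost (adjusted p = 0.055 and 0.0655). In photorespiration, 2 of 3 were called higher: AT1G80380 had 1186, 1161 and 1117 in stn7-1 and 821, 685 and 754 in Col-0 (0.62), and AT1G11860 rose by 0.29, a call lost without Col-0 B, stn7-1 A or stn7-1 B, when 1 of the 3 was left. HPR, for the peroxisomal hydroxypyruvate reductase, had 3451, 3436 and 3443 in stn7-1 and 3582, 3457 and 3423 in Col-0, a change of -0.02.

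Genes for cytosolic ribosomal proteins gave more calls than any other list described here. This list was added after values were seen, so its counts describe these data and are not an independent test. Of 112 tested probe sets, 73 were called higher and 0 lower, against 8.54% higher over all named probe sets, and the median log2 change was 0.63, ranging from -0.19 to 1.17. All but 3 had a change above 0. AT5G09510 had a signal of 272, 319.9 and 238 in stn7-1, against 147, 98.3 and 131 in Col-0 (1.15 ± 0.18 SE, adjusted p = 0.000879), and AT2G34480 had 1714, 2127 and 1836 in stn7-1, against 1200.3, 992 and 1146 in Col-0 (0.76). In 94 of the 112 all stn7-1 arrays were above all Col-0 arrays, as in 16.5% of all named probe sets. The list's median signal, centred on each probe set's mean over the 6 arrays, was 0.15, 0.46 and 0.35 in stn7-1 A, B and C and -0.19, -0.54 and -0.23 in Col-0 A, B and C, on the log2 scale. Col-0 B was the lowest of the 6 arrays in 104 of the 112. Without it 37 were called and the median was 0.52, and without stn7-1 B 39 were called and the median was 0.56. The members of this family share sequence, and signal of near-identical copies cannot be separated on the array.

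Most plastid-encoded genes had a positive change, but few passed. The one-cycle labelling primes from oligo(dT), which favours polyadenylated RNA, and plastid transcripts mostly lack a stable tail of that kind. Of 67 tested, 62 had a log2 change above 0 and the median was 0.50, yet 5 were called, all higher and all for ribosomal proteins: rpl14, rpl22, rpl36, rps3 and rps16. That is 7.46% of the 67, near the 8.54% of all named probe sets called higher. rpl36 had 2004, 1669 and 1790.4 in stn7-1, against 1245, 829 and 982 in Col-0 (0.85 ± 0.18 SE, adjusted p = 0.00538). Photosynthesis genes of the plastid varied among the wild-type arrays: psaA, for a core protein of photosystem I, had 1124, 749.9 and 740.0 in stn7-1 and 1112, 62.5 and 289 in Col-0, and atpH, for a subunit of the ATP synthase, had 1043, 628 and 730.0 in stn7-1 and 886, 52 and 305 in Col-0. Col-0 A was at the level of stn7-1 in both genes, whereas Col-0 B was many times lower, and neither passed (adjusted p = 0.169 and 0.274). psbA, for the D1 protein of photosystem II, had 580.0, 367 and 578 in stn7-1 and 571, 299 and 569 in Col-0, a change of 0.11. Col-0 B was the lowest array in 60 of the 67. Without it 1 was called and the median was 0.19, without stn7-1 A 3, without stn7-1 B 2, and without Col-0 A 18 were called and the median was 0.69.

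The 3 named genes that fell furthest in stn7-1 are on the list of flavonoid and anthocyanin synthesis, the pathway that colours leaves under strong light. All 5 tested members, of 6 measured and 23 on the list, were called lower, with a median log2 change of -2.59, where 9.34% of all named probe sets were called lower. AT4G14090, on the list by its locus, had a signal of 13.3, 21.4 and 18.4 in stn7-1, against 159.9, 201 and 149 in Col-0. It averaged 17.7 ± 4.09 in stn7-1 and 170.0 ± 27.7 in Col-0 (SD, n = 3 each), 9.59-fold lower by mean signal, with a log2 change of -3.28 ± 0.64 (SE) and a limma adjusted p of 0.00294. The mutant arrays were still above background.

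DFR encodes dihydroflavonol reductase, the step that commits flavonoids to anthocyanin. It had 20.4, 26.6 and 48.7 in stn7-1, against 160.3, 296 and 188 in Col-0, 6.74-fold lower by mean signal (log2 change -2.80, adjusted p = 0.00933). UF3GT, for an anthocyanin glycosyltransferase, had 22.2, 25.4 and 18.3 in stn7-1, against 97.5, 186 and 124 in Col-0, 6.19-fold lower (log2 change -2.59, adjusted p = 0.00093). Their highest mutant arrays lay below their lowest wild-type arrays by a wide margin, and Col-0 B was the highest of the 6 in both. The glycosyltransferase genes UGT78D1 and UGT78D2 changed less: UGT78D1 had 197, 201 and 241 in stn7-1 and 374, 354 and 375 in Col-0 (-0.79), and UGT78D2 had 176, 192 and 189 in stn7-1 and 283, 309 and 267 in Col-0 (-0.62). Without Col-0 B all 5 were still called lower, and the median was -2.34.

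**Figure D2:**
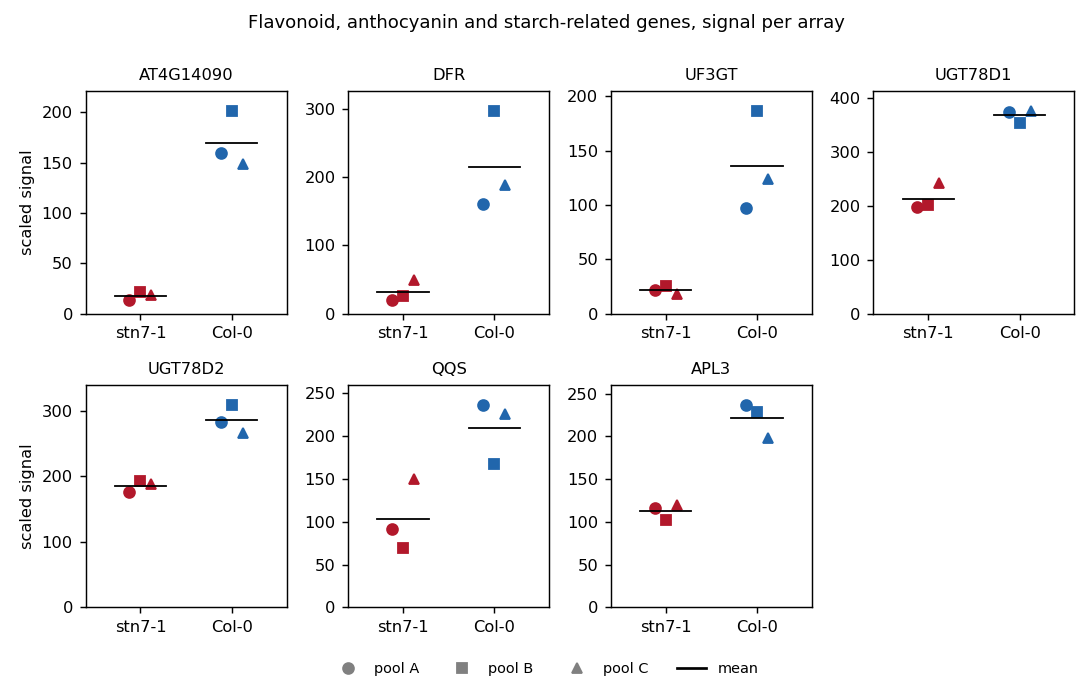
Scaled signal on each array for the 5 tested genes of flavonoid and anthocyanin synthesis and for QQS and APL3, with stn7-1 at the left and Col-0 at the right of each panel, marker shapes for the pools A, B and C, and a line at the mean of each genotype. The stn7-1 points lie below the Col-0 points in every panel, and the gap is widest for AT4G14090, DFR and UF3GT.

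Both measured genes of the sugar and starch list were called lower as well, where 9.34% of all named probe sets were. APL3, for a large subunit of the enzyme that makes ADP-glucose for starch, had 117, 102 and 120.1 in stn7-1, against 237, 228 and 198 in Col-0 (-0.97 ± 0.21 SE, adjusted p = 0.00554). QQS, a regulator of starch content, had 91.3, 69.9 and 149 in stn7-1, against 236, 167 and 226 in Col-0 (-1.07 ± 0.29 SE, adjusted p = 0.0188). APL3 was separated by a wide margin and QQS by a narrow one. QQS lost its call without Col-0 A, Col-0 C, stn7-1 A or stn7-1 B, when 1 of the 2 was left.

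Genes of the ATG8 family, a list added after values were seen, were lower in stn7-1. ATG8 proteins are joined to the lipid of the forming autophagosome and recruit cargo to it. All 9 measured members had a log2 change below 0, 7 were called lower and 0 higher, where 9.34% of all named probe sets were lower, and the median was -0.57. APG8H (AT3G15580, also ATG8I) had a signal of 429, 404 and 466 in stn7-1, against 647, 644 and 636 in Col-0 (-0.57 ± 0.09 SE, adjusted p = 0.000879). ATG8H had 23.3, 25.1 and 33.5 in stn7-1, against 57.9, 58.5 and 51.3 in Col-0, 2.05-fold lower (-1.05 ± 0.17 SE, adjusted p = 0.00093). The wild-type arrays lay close together in both genes, Col-0 B among them.

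The remaining family members gave smaller falls. ATG8C had 199.8, 168 and 206 in stn7-1 and 275, 276 and 299.8 in Col-0 (-0.57), and APG8A had 172, 151 and 169 in stn7-1 and 236, 241 and 211 in Col-0 (-0.48). ATG8D, ATG8G and ATG8F fell by 0.66, 0.64 and 0.38 on the log2 scale. ATG8B, with a change of -0.38 (adjusted p = 0.0675), did not pass, nor did ATG8E, which had 175, 155 and 139 in stn7-1 and 125, 181 and 201 in Col-0, a change of -0.09. In 8 of the 9 the arrays of the genotypes did not overlap, ATG8E being the exception, where 20.2% of all named probe sets lay below Col-0 without overlap. Centred on each probe set's mean, the family's median was -0.22, -0.38 and -0.18 in stn7-1 A, B and C and 0.28, 0.25 and 0.32 in Col-0 A, B and C. Leaving out Col-0 B gave 6 calls with a median of -0.57. Of 8 other probe sets for autophagy genes, ATG101 (AT5G66930), for a subunit of the initiating kinase complex, and AT3G61960 were called lower at -0.38 and -0.36, with adjusted p of 0.0326 and 0.0497, and neither was called without any 1 of Col-0 A, Col-0 B, Col-0 C or stn7-1 C, while 1 was left without stn7-1 A or stn7-1 B.

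ESCRT genes, whose products sort membrane proteins into multivesicular bodies on the way to the vacuole, were lower in many members. Their list was also added after values were seen. Of 13 tested, 9 were called lower and 0 higher, where 9.34% of all named probe sets were lower, with a median of -0.45. VPS2.1 had 223, 273 and 272 in stn7-1, against 355, 514 and 419 in Col-0 (-0.74 ± 0.15 SE, adjusted p = 0.00322), and SNF7.1 had 129, 148 and 129 in stn7-1, against 185, 229 and 209 in Col-0 (-0.62). VPS60.1 and VPS60.2 fell by 0.63 and 0.57, the second call being lost without Col-0 B (adjusted p = 0.0554) or stn7-1 B. VPS2.2 went the other way at 0.55 without passing. In 11 of the 13 the stn7-1 arrays lay below all Col-0 arrays, against 20.2% of all named probe sets, but the calls were sensitive: 3 were made without Col-0 B, 3 without stn7-1 B, 5 without Col-0 C, and 6 without stn7-1 A or stn7-1 C, with medians of -0.38 to -0.53. Scaling to the median left 4.

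Amino acid catabolism had a median change near that of all named probe sets, although some of its members were lower. Of 9 measured genes, 3 were called lower, where 9.34% of all named probe sets were, and the median was -0.05. MGL, for methionine gamma-lyase, had 42.7, 51.6 and 42.6 in stn7-1, against 97, 107 and 68.5 in Col-0 (-0.98 ± 0.21 SE, adjusted p = 0.00498). ETFALPHA and ETFBETA, for the electron transfer flavoprotein that takes electrons from branched-chain amino acid breakdown, fell by 0.42 and 0.45. Without Col-0 B 2 of the 3 calls were left, ETFBETA being lost (adjusted p = 0.145). The same 2 were left without Col-0 A, stn7-1 A or stn7-1 C. Without stn7-1 B 1 was left, ETFALPHA and ETFBETA both being lost.

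**Figure D3:**
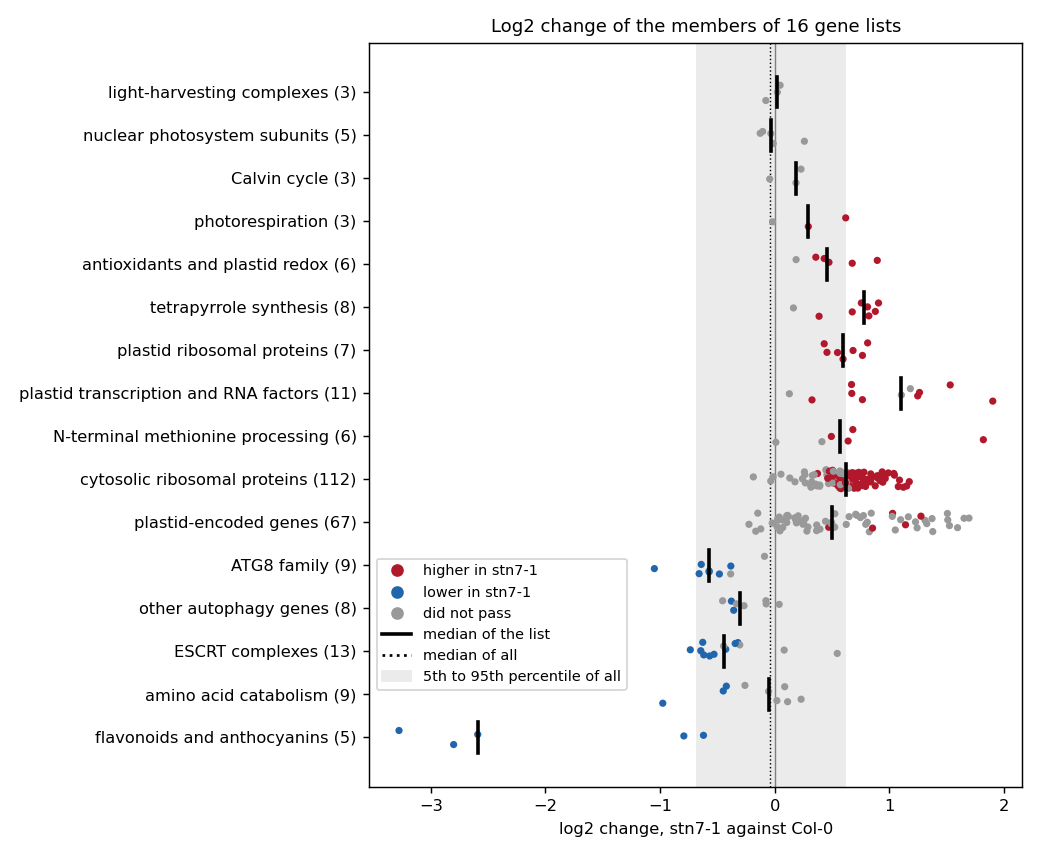
Log2 change of stn7-1 over Col-0 for each tested member of 16 gene lists, 1 point per probe set, with a black bar at the list's median. The grey band spans the 5th to 95th percentile of all 7354 named probe sets, -0.68 to 0.61, and the dotted line is their median of -0.04. The tetrapyrrole, ribosomal protein and plastid RNA lists lie mostly to the higher side, the flavonoid, ATG8 and ESCRT lists to the lower side, and the antenna and photosystem lists near 0.

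**Figure D4:**
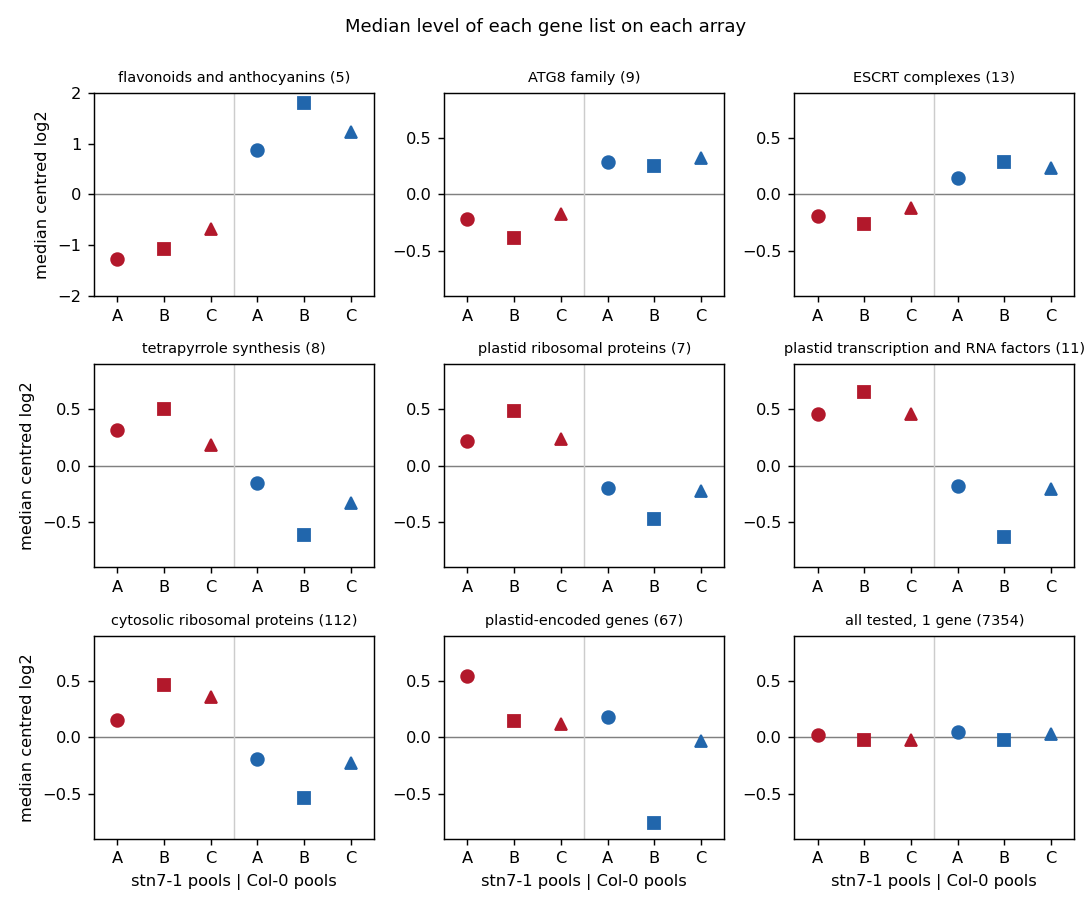
Median log2 signal over the members of 9 lists on each of the 6 arrays, after subtracting each member's mean over those arrays, with stn7-1 at the left and Col-0 at the right of each panel. The axis of the flavonoid panel runs from -2 to 2 and the others from -0.9 to 0.9. Col-0 B is the lowest array in the panels of the ribosomal and plastid lists, with -0.54 for cytosolic ribosomal proteins and -0.76 for plastid-encoded genes, but not in that of ATG8, where it is at 0.25.

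The largest single changes lay partly outside these lists. Among genes higher in stn7-1, AT5G26200 had a signal of 25.4, 13.1 and 25.2 in stn7-1, against 4.92, 7.11 and 2.09 in Col-0. All wild-type arrays were under the background of 8.15, so it was at least 2.61-fold higher in stn7-1 (adjusted p = 0.000879). AT5G62720 had 190.1, 204 and 138 in stn7-1 and 51.2, 55.3 and 70 in Col-0, 3.02-fold higher (log2 change 1.59 ± 0.17 SE, adjusted p = 0.000165). AT5G66530 had 632, 896 and 476 in stn7-1 and 313, 203 and 255 in Col-0 (1.35). These 3 genes showed no overlap of the arrays, and the files pair them with a locus alone. AT3G62950 had 33.5, 36.3 and 14 in stn7-1 and 9.9, 1.36 and 13 in Col-0. Col-0 B was under the background there, so by mean signal it was at least 2.70-fold higher in stn7-1. The call (adjusted p = 0.0286) was lost without Col-0 B (adjusted p = 0.135), without stn7-1 B (adjusted p = 0.108) or without stn7-1 A (adjusted p = 0.0933). The other genes with the highest changes were AT5G39980, AT1G79150 at 1.39, AT5G47790 at 1.36 and AT5G53920 at 1.34, beside the plastid gene rps16 at 1.28 and the genes named above. All 5 of these lost the call without Col-0 B. AT5G39980 and rps16 also lost it without Col-0 C, stn7-1 A or stn7-1 B, and AT5G47790 without stn7-1 A.

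Among genes lower in stn7-1, AT1G22160 had the smallest adjusted p of those named here. It had 144, 129.7 and 215 in stn7-1, against 565, 616 and 457 in Col-0, 3.35-fold lower (log2 change -1.77 ± 0.17 SE, adjusted p = 7.07e-05). AT1G80130 had 84.9, 85.9 and 79.8 in stn7-1, against 335, 418 and 293 in Col-0, 4.18-fold lower (-2.05 ± 0.22 SE, adjusted p = 0.000165). AT1G76960 had 54.2, 31.1 and 63.5 in stn7-1, against 227, 279 and 241 in Col-0, 5.02-fold lower (-2.38 ± 0.43 SE, adjusted p = 0.00185). In all 3 the lowest wild-type array was above the highest mutant array by more than the spread within either genotype. AT1G67920 had 17.2, 18 and 17.4 in stn7-1 and 39.7, 150.3 and 104 in Col-0 (-2.28), the wild type being variable, and AT1G64360 had 162, 109 and 241 in stn7-1 and 631, 648 and 575 in Col-0 (-1.93). AT5G50335, AT4G19430, AT1G73040 and AT5G52760 fell by 1.99, 1.97, 1.92 and 1.91 on the log2 scale, and the first of them lost the call without Col-0 B or stn7-1 B. GAMMA-VPE, for a vacuolar processing enzyme, is named here after its values were seen: it had 679, 656 and 752 in stn7-1 and 1739, 1950.5 and 1415 in Col-0 (-1.28, adjusted p = 0.000551).

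Transporters, wall proteins and stress genes changed one by one rather than by family. Of 8 SWEET family genes, SWEET2, for a sugar carrier of the vacuolar membrane, had 220.3, 213 and 183 in stn7-1, against 101, 95.9 and 104 in Col-0, 2.05-fold higher (1.03 ± 0.11 SE, adjusted p = 0.000165). SWEET13, for a plasma membrane sucrose carrier, had 55, 71.4 and 40.2 in stn7-1, against 133, 112 and 104 in Col-0 (-1.10 ± 0.29 SE, adjusted p = 0.016), a call lost without stn7-1 C. The other 6, SWEET11 and SWEET17 among them, did not pass. Of 5 expansin genes, EXPA8, for a protein that loosens the cell wall, had 930.4, 668 and 883 in stn7-1 and 506, 293 and 448 in Col-0 (1.01), and the rest did not pass.

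Calcium and stress genes spread widely among the arrays. CML38, for a calmodulin-like calcium sensor, had 123, 284 and 295 in stn7-1 and 309, 1115 and 772 in Col-0 (-1.56 ± 0.45 SE, adjusted p = 0.0225). WRKY53, a senescence regulator, had 23.5, 51.5 and 29.6 in stn7-1 and 56.4, 162 and 82.5 in Col-0 (-1.46 ± 0.41 SE, adjusted p = 0.0212). STZ, a zinc-finger repressor of abiotic stress responses, had 494, 1188 and 1016 in stn7-1 and 1008, 2596 and 1547 in Col-0, without passing (-0.92, adjusted p = 0.119). Within the wild type Col-0 B was the highest of the 3 in each gene, and without it neither CML38 nor WRKY53 was called (adjusted p = 0.117 and 0.116). Both calls were also lost without stn7-1 A, that of CML38 without Col-0 C and that of WRKY53 without stn7-1 C. WRKY53 was the only tested gene of the senescence markers, and the guard cell marker FAMA had a change of 0.19 (adjusted p = 0.437). The epidermis and trichome, phloem and flower marker lists had no tested member. None of the 3 tested cold-regulated genes, 3 clock and light genes and 2 glucosinolate genes passed.

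The effect of losing STN7 was then followed in plants that already lack a photosystem I subunit gene, with no array in common. In psad1-1 stn7-1 against psad1-1, 167 named probe sets passed on 5 arrays (2.27%), 1.37% higher and 0.897% lower. In psae1-3 stn7-1 against psae1-3, 825 passed on 4 arrays (11.2%), 6.83% higher and 4.39% lower. The labels do not give the accession of either genotype of this pair, so loss of STN7 and any accession difference within it cannot be told apart. Of the 5 measured nuclear photosystem genes, 1 was called lower in this pair, where the lowest change among them was -2.39. Of the 628 genes higher in stn7-1, 5 were called higher and 6 lower in psad1-1 stn7-1, and 22 higher and 81 lower in psae1-3 stn7-1. Of the 687 lower in stn7-1, 28 were called higher and 3 lower in psad1-1 stn7-1, and 116 higher and 26 lower in psae1-3 stn7-1. Those higher in stn7-1 had a median change of -0.03 in the psad1-1 background and -0.21 in the psae1-3 background, and those lower had 0.09 and 0.19. Across the 7354 probe sets the changes in stn7-1 correlated at -0.14 with those in psad1-1 stn7-1 and -0.28 with those in psae1-3 stn7-1, a description across genes, which are not independent.

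**Figure D5:**
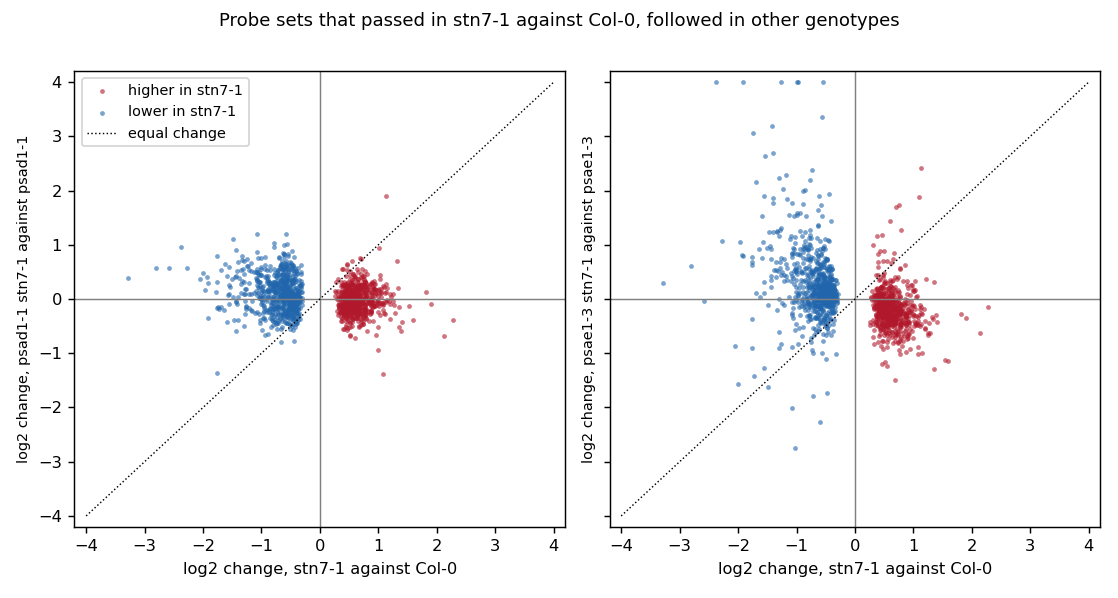
Log2 change of the 1315 probe sets called in stn7-1 against Col-0 on the horizontal axis, and of the same probe sets in psad1-1 stn7-1 against psad1-1 (left) and psae1-3 stn7-1 against psae1-3 (right) on the vertical axis, with a dotted line of equal change. The points lie in 2 clouds either side of 0 that do not follow the dotted line. In the right panel 6 points beyond the axis limit are drawn at its edge.

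Levels show the pattern gene by gene. DFR had 102, 58 and 50.1 in psad1-1 stn7-1, against 44.9 and 45.1 in psad1-1, and AT4G14090 had 40.1, 28.2 and 28.4 in psad1-1 stn7-1, against 24.6 and 24.2 in psad1-1. Both genes were low in psad1-1, near the stn7-1 level, and neither was lower in the double mutant than in psad1-1. HEMB1 had 669.8, 669 and 649.9 in psad1-1 stn7-1, against 721 and 759 in psad1-1, and CHLI2 had 231, 218 and 249 in psad1-1 stn7-1, against 244 and 251 in psad1-1. These values are near those of stn7-1 rather than Col-0. PORB stood lower, with 275, 248 and 243 in psad1-1 stn7-1 and 377 and 387 in psad1-1. APG8H had 409, 436 and 418 in psad1-1 stn7-1, against 357 and 421 in psad1-1, and SWEET2 had 899, 818 and 771 in psad1-1 stn7-1, against 949 and 1094 in psad1-1. UGT78D2, lower in stn7-1, was higher in the double mutant, with 459.6, 523 and 614 in psad1-1 stn7-1 and 300.4 and 319 in psad1-1 (0.77, adjusted p = 0.0289).

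Lists that were mostly higher or mostly lower in stn7-1 had medians nearer 0 or of the other sign in these backgrounds. Tetrapyrrole genes had a median change of -0.09 in psad1-1 stn7-1 and -0.30 in psae1-3 stn7-1, plastid ribosomal proteins 0.05 and -0.45, plastid transcription and RNA factors -0.10 and -0.34, and cytosolic ribosomal proteins 0.26 and -0.21, in that order of background. Flavonoid genes had 0.57 and 0.55, and the ATG8 family 0.12 and 0.10. Outside those lists, the 3 clock and light genes, none of which passed in stn7-1, had 2.17 and 0.13. All 3 were called higher in psad1-1 stn7-1 against psad1-1, by a log2 of 2.07 to 2.39, and the cause was not tested. The difference between effects was tested directly: 849 named probe sets (11.5%) differed between the psad1-1 background and Col-0, and 1583 (21.5%) between the psae1-3 background and Col-0, the second crossing array sets and perhaps accessions, since the labels do not give the accession of psae1-3. The genes called in stn7-1 share their 6 arrays with that difference, so its sign among them is not independent.

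Of the 1315 probe sets called in stn7-1 against Col-0, 8 were called the same way in the psad1-1 background. Calls there were sparse, at 1.37% of all named probe sets higher and 0.897% lower. The 8 were THI2.2, AGL87, AT4G11175, AT3G18760 and AT1G23205 higher, and ETFALPHA, AT1G04770 and AT1G17160 lower. In the psae1-3 background there were 48, where 6.83% of all named probe sets were higher and 4.39% lower. All 3 backgrounds shared 2, THI2.2 and AGL87. THI2.2, for a thionin, a small antimicrobial peptide, had 569.7, 434 and 457 in stn7-1, against 249, 181 and 238 in Col-0 (1.13, adjusted p = 0.0422). It had 804, 907 and 1148 in psad1-1 stn7-1, against 293 and 218 in psad1-1 (1.90), and 554 and 556 in psae1-3 stn7-1, against 97.7 and 110.3 in psae1-3 (2.42). Every array with stn7-1 lay above every array of its own background, but the call in stn7-1 against Col-0 was lost when any 1 of the 6 arrays was left out (adjusted p = 0.052 to 0.141). In Wassilewskija, on the array set of the psae1-3 pair, THI2.2 had 18.6 and 3.73, far below its level in Col-0. The accession of that pair is not given, so loss of STN7 and accession cannot be told apart there for this gene. AT1G04770 had 81.4, 71.3 and 89.2 in stn7-1, against 212, 327 and 288 in Col-0 (-1.76), and fell by 1.37 in psad1-1 stn7-1. These genes were named after their values were seen.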

How the data were processed

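Rosette leaf RNA of 7 genotypes was hybridised to 17 ATH1 arrays, 1 pool of 10 plants each, from 5 µg of total RNA. The deposited intensity of each probe set is a MAS5 signal made with GCOS, per the submitters' processing notes, and the deposited trimmed means are 100 on 11 arrays and 500 on 6. No software version or growth condition is stated in the labels or notes. Precision is limited by the number of arrays.

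Each array was rescaled to a 2% trimmed mean of 100, floored at the 10th percentile of signal (1.57) and taken to log2. The 64 control probe sets and the 40% with the lowest mean were dropped, leaving 13648. limma 3.58.1 in R 4.3.3 fitted 1 mean per genotype over the 17 arrays, with eBayes, a trend on the mean and Benjamini-Hochberg adjustment at 0.05, two-sided. Background (8.15) is the 95th percentile of 315 signals of unspiked control probe sets, and a fold against arrays under it is a lower bound. Folds by mean signal are ratios of mean scaled signals, whereas log2 changes come from the fit. In simulated data of the same layout, the fit recovered 19 of 50 probe sets changed by a fold of 1.5, 42 of 50 changed by 2 and 50 of 50 changed by 4, with 6 false calls. The simulated noise was drawn independently for each probe set and array. The 6 false calls therefore do not cover a deviation that many probe sets of an array share, such as that of Col-0 B.

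Of 22810 probe sets, 13513 are listed with 1 gene and 503 with several in GEO's platform annotation, and 13436 of those with 1 gene matched RefSeq (TAIR10.1), used for names only. Members and gene lists were chosen with earlier results of these data known, and 10 lists were added after values were seen. The added lists are ATG8, other autophagy genes, ESCRT, amino acid catabolism and pyrimidine synthesis. They also include plastid chaperonins, plastid Clp protease, N-terminal methionine processing, plastid transcription and RNA factors, and cytosolic ribosomal proteins. Their counts are not an independent test. Lists were put together by locus from background knowledge. Measured members are those listed with a named probe set, often a small part of the list. Genes named are the 12 highest and 12 lowest called probe sets without overlap of the arrays, up to 4 called members per list by adjusted p, all measured thylakoid regulators, and members that did not pass; others are marked. The remaining lists gave 0 calls in 2 XTH genes, 1 higher and 1 lower in 8 SWEET genes, 2 lower in 6 glutathione S-transferase genes and 1 lower in 2 IAA genes. Of the glutathione S-transferase calls, that of GSTU16 was lost without Col-0 B, and both were lost without Col-0 C or stn7-1 B. The IAA call was lost without stn7-1 B.

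The replicate letters were checked as pairs. Deviations from the genotype mean correlated at 0.272 for A, -0.011 for B and -0.11 for C, against -0.251 to 0.221 between arrays of unlike letters. Matched letters thus showed no regular pairing, but so few values cannot exclude it. Alternatives were 2 other scalings, 2 floors, no filter and a stricter one, no trend, fits of 11 and of 6 arrays, a replicate block and leaving out each array. A planned look at promoter motifs was not run.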

Additional observations from a re-analysis of the deposited data

Results flagged for a closer look

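The effect of stn7-1 in the psad1-1 background differed from its effect in Col-0 at 1610 of 13648 tested probe sets (11.8%), by the limma interaction term. Its effect in the psae1-3 background differed from that in Col-0 at 3121 (22.9%), but this contrast also crosses the array sets and perhaps accessions. The genes chosen for their change in stn7-1 share the Col-0 and stn7-1 arrays with the interaction, so its sign among them is not independent of that choice.

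For genes higher in stn7-1, the log2 change in psad1-1 stn7-1 over psad1-1 minus that in stn7-1 over Col-0 was -2.67 for AT5G26200, whose Col-0 arrays were all under the background so that the size is not established. It was -1.98 for AT5G62720, -1.97 for AT1G79150 and -1.87 for AT5G47790. It was -1.70 for MAP1C, -1.66 for AT4G26370 and -1.50 for AT5G66530. For genes lower in stn7-1 the same difference was 3.66 for AT4G14090, 3.37 for DFR, 3.35 for AT1G76960 and 3.17 for UF3GT. It was 2.85 for AT1G67920, 2.47 for AT5G50335, 2.42 for AT1G80130, 2.33 for AT1G64360, 2.21 for AT5G52760 and 1.90 for AT1G22160. Dixon's criterion for a single value far from its group was not applied, since every group has 3 arrays or fewer.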

How the results depend on the processing

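Scaling each array to its median gave 400 named probe sets lower, 71.8% of all calls higher (51.5% otherwise), 4 ESCRT genes lower and 2 Calvin cycle genes higher. Over all tested probe sets the median log2 change was 0.06 under that scaling, 0.02 under quantile normalization and -0.03 otherwise. Quantile normalization gave 56.6% of calls higher and 1 Calvin cycle gene. No filter gave 53.8% higher, and dropping 60% gave 54.8% and 2 flavonoid genes lower, since fewer were tested. The effect in the psad1-1 background gave 112 calls with no filter, 177 with no trend, 120 with 11 arrays and 47 with the replicate block, against 285. With the replicate block 2395 probe sets passed in stn7-1 against Col-0, and 1175 of the 1315 named calls were shared. Leaving out 1 array gave 1326 to 2685 calls against 2580, 332 to 670 named higher, 324 to 683 named lower and 51.7% to 57.0% higher. It gave 3 to 7 ESCRT genes lower and 5 to 7 ATG8 genes, 5 flavonoid genes throughout, and 37 to 75 cytosolic ribosomal, 5 to 9 plastid RNA, 6 to 7 tetrapyrrole, 6 to 7 plastid ribosomal, 3 to 5 antioxidant and 0 to 1 Calvin cycle genes higher. Calls were 194 to 307 for psad1-1, 1508 to 1723 for psae1-3, and 1098 to 1837 and 2561 to 3201 for the interactions. For all probe sets in stn7-1 against Col-0, the lowest count came without Col-0 B. The cause of these shifts was not tested. Of 1368 values of 87 genes over 16 alternatives, 1229 stayed on the same side of the threshold in the same direction, 138 lost it, 1 gained it (PGRL1B, without stn7-1 C) and 0 reversed. Fits of 6 or 11 arrays give no value for genotypes they leave out.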
